A study of Arabidopsis thaliana with 12 samples.

Results

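The genes examined here flank AGO4, the gene of the Argonaute protein that binds 24-nt siRNAs in RNA-directed DNA methylation (RdDM), on the long arm of chromosome 2 of Arabidopsis thaliana. They were chosen by gene number, not by a measured value. Every gene of the RNA-seq table numbered AT2G25000 to AT2G27999 was taken, except AGO4 itself (AT2G27040) and 4 other named genes. Of the genes so left out, 4 had a row, AGO4 among them. This gave 190 members of 16755 genes. The ago4 plants carried the ago4-1 allele introgressed into the Col-0 accession, so DNA linked to AGO4 may also stem from the donor accession, and each mutant was represented by a single allele. The nrpe1 plants carried the nrpd1b-11 allele of the largest subunit of RNA polymerase V in the Col-0 background, and the wild type was Col-0. Seedlings were grown under long days. Hi-C used the above-ground tissue, and for RNA-seq the sources used here name seedlings without saying which organs. Hi-C was performed with 3 replicates of ago4 and of nrpe1 used here, and RNA-seq with 3 replicates of ago4. The Col-0 RNA-seq had been published earlier, from plants that the study describes as handled in parallel.

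In RdDM, RNA polymerase V produces non-coding transcripts, and AGO4 with its siRNAs recognises them and directs de novo DNA methylation, mainly of transposons and repeats in chromosome arms. In nrpe1 the scaffold transcript is lost, whereas in ago4 the siRNA-binding protein is lost. Linked genes travel with an introgressed mutation through backcrosses, and in Arabidopsis the neighbourhood of AGO4 includes ERECTA, a receptor kinase gene whose mutation gives the accession Landsberg erecta its name. Which stretch of the segment came from a donor was not tested, because sequence variants were not analysed here.

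The segment ran from 10631531 to 11920001 on chromosome 2 (TAIR10.1), a length of 1.29 Mb, with 905 kb on the lower-coordinate side of AGO4 (11536502-11542391, minus strand) and 378 kb on the higher-coordinate side. Of the members, 134 lay on the lower-coordinate side and 56 on the other. The annotation numbers 350 loci in this range, of which 156 had no row in the RNA-seq table and were not analysed here. Nearly all members were protein-coding (188), and the other 2 were a long non-coding RNA gene and TAS1A, which is a source of trans-acting siRNAs. They were spread over both strands (86 plus, 104 minus). For 48 members an annotated neighbour overlapped them. The strand used in counting is not stated in the sources used here, so how reads in the overlapping stretches were assigned is not known. Reads marked ambiguous were kept apart from the gene values.

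The Hi-C files name the nrpe1 DMRs, regions that lose DNA methylation in nrpe1, that had a chromosomal interaction in each library. Across the 6 libraries 541 DMRs were listed, and 18 of them had their midpoint in the AGO4-flanking segment. The sequences of 6 of these are shown first because the results below turn on them, each read from TAIR10.1 on the plus strand. GATC, the site cut by DpnII in the Hi-C protocol, is in capitals.

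The following 3 lie next to each other upstream of AT2G26230, which encodes uricase, the enzyme that oxidises uric acid in purine breakdown. For each the middle 300 bases are printed. The first and last were listed in all 3 ago4 libraries and in no nrpe1 library, and the middle one was listed in all 3 nrpe1 libraries and in no ago4 library.
chr2:11160900-11161199: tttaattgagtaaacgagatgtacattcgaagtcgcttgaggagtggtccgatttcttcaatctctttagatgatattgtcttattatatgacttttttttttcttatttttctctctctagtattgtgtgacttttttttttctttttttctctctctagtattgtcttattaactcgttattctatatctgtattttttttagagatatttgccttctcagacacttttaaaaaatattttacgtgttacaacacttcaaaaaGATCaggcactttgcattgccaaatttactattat
chr2:11162528-11162827: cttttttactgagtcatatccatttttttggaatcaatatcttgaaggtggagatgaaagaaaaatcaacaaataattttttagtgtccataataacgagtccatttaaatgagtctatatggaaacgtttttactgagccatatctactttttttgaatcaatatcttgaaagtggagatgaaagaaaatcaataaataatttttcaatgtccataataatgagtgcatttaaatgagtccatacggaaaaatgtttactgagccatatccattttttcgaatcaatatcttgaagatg
chr2:11164006-11164305: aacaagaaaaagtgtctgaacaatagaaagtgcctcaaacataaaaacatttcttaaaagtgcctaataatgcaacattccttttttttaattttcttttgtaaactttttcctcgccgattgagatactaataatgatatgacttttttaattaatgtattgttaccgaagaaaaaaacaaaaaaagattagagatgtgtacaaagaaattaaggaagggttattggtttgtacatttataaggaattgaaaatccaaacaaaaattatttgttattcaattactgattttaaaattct

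Another 3 are printed whole. The first was listed in ago4 replicates 2 and 3 and lies 185 bp upstream of AT2G25100. The second was listed in replicates 2 and 3 of both genotypes. The third was listed in ago4 replicates 1 and 3 and was the closest to AGO4.
chr2:10682239-10682324: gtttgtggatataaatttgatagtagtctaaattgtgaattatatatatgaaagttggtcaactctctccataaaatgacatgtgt
chr2:11048498-11048655: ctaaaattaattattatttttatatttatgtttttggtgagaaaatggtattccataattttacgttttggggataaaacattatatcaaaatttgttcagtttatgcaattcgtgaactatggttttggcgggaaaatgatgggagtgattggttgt
chr2:11555359-11555542: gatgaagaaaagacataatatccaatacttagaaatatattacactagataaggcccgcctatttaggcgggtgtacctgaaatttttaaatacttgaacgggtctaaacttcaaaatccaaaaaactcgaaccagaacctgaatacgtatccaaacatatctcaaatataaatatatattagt

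All 6 printed stretches are rich in A and T, and only the first of the uricase group holds a DpnII site. Of the 18 DMRs in the segment, 9 (50%) held a GATC, against 347 of all 541 (64.1%). Their median GC content was 30.4%, against 31.3% over all listed DMRs, and their median length was 331 bp, against 408 bp. Of the 31-mers in a DMR, a median of 96.3% occurred once in the genome for the segment, against 83.1% for all DMRs, and 5 of the 18 (27.8%) were unique throughout, against 75 of the 541 (13.9%). The middle DMR of the uricase group differed from its neighbours in sequence: its commonest 15-mer with all 4 bases occurred 4 times within its 1033 bp. A 15-mer present 3 times or more was found in 1 of the 18 DMRs of the segment (5.56%) and in 28 of all 541 (5.18%). No such 15-mer was shared among the 3 DMRs of the group on either strand.

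The first question was which RdDM targets around AGO4 had chromosomal interactions in ago4 and in nrpe1. Hi-C was also performed on Col-0, but no Col-0 list was available here. Whether a listed DMR also had interactions in the wild type was thus not examined. Per library, 7, 9 and 7 DMRs of the segment were listed in ago4 replicates 1, 2 and 3, against 2, 6 and 3 in nrpe1 replicates 1, 2 and 3. Each ago4 library listed more than its same-numbered nrpe1 library, and every ago4 number lay above every nrpe1 number. The means were 7.67 ± 1.15 DMRs in ago4 and 3.67 ± 2.08 DMRs in nrpe1 (SD, n = 3 each). The lists themselves were also longer in ago4, with 215, 265 and 207 DMRs, against 50, 176 and 65 DMRs in nrpe1.

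Set against the length of its own list, the segment did not take a larger share in ago4. It held 3.26%, 3.40% and 3.38% of the listed DMRs in ago4 replicates 1, 2 and 3, against 4.00%, 3.41% and 4.62% in nrpe1. The 95% Wilson intervals of the single libraries ran from 1.59% to 6.81% in ago4 and from 1.1% to 13.5% in nrpe1, and cover counting error only. The mean share was 3.34% ± 0.0772 in ago4 and 4.01% ± 0.603 in nrpe1 (SD, n = 3 each). Every ago4 share lay below every nrpe1 share, though in replicate 2 by little. The differences of ago4 minus nrpe1 in replicates 1, 2 and 3 were -0.744, -0.0129 and -1.23 percentage points. Their mean was -0.664 percentage points (SD 0.614, n = 3), with p = 0.25 when the signs of these 3 differences were flipped in all ways (exact, two-sided), and no smaller p can arise from 3 pairs. Without the replicate block, the two-sided exact permutation test gave p = 0.10 for the same difference, the smallest that 3 against 3 allows. Neither form of the test could have reached significance with this number of libraries. The direction turned with the region: in the narrower segment from AT2G26000 on, the mean difference was 0.0110 percentage points.

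**Figure D1:**
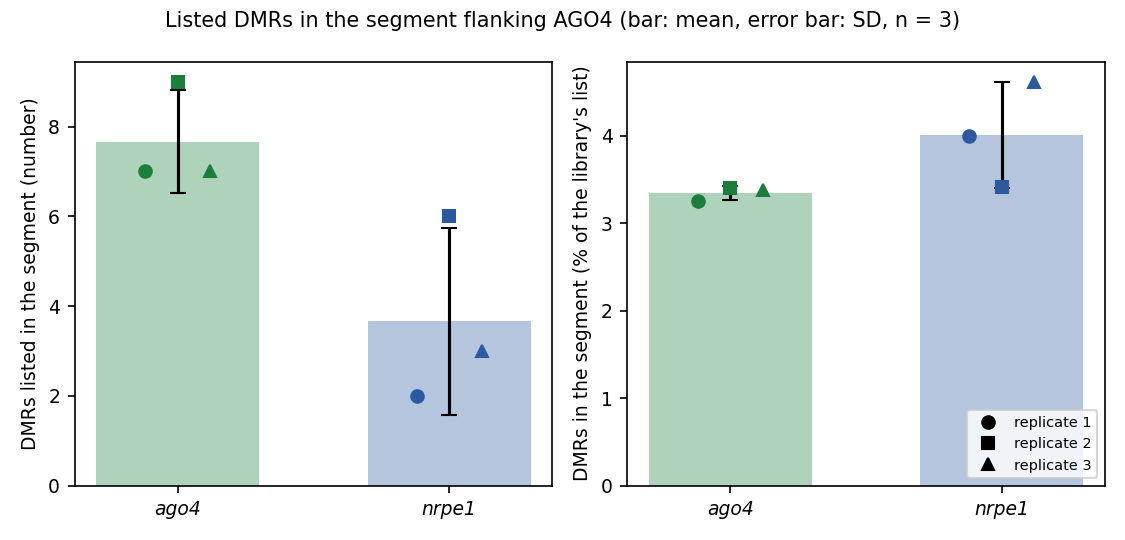
Number of nrpe1 DMRs listed in the AGO4-flanking segment (left panel) and the same as a percentage of each library's own list (right panel), with ago4 left of nrpe1, points for the 3 replicates, bars for means and error bars for SD. The numbers were 7, 9 and 7 in ago4 against 2, 6 and 3 in nrpe1, while the shares were 3.26% to 3.40% in ago4 and 3.41% to 4.62% in nrpe1.

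The excess of listed DMRs in ago4 was thus also seen elsewhere in the genome. In replicates 1, 2 and 3 the ratio of ago4 to nrpe1 numbers was 3.5, 1.5 and 2.33 in the segment (geometric mean 2.31). It was 3.54 on the rest of chromosome 2 and 2.53 on chromosomes 1, 3, 4 and 5 (geometric means). The density of listed DMRs varied along chromosome 2. The segment had 5.95 DMRs per Mb in ago4 and 2.85 DMRs per Mb in nrpe1, whereas the rest of chromosome 2 had 3.77 DMRs per Mb in ago4 and 1.14 DMRs per Mb in nrpe1. Chromosomes 1, 3, 4 and 5 had 1.53 DMRs per Mb in ago4 and 0.727 DMRs per Mb in nrpe1. That average covers unlike stretches on the 2 sides. A stretch as long as the segment directly below it in coordinate held 23 listed DMRs, against 18 in the segment, and the stretch of the same length directly above it held 3. Per library the stretch below held 11, 12 and 10 DMRs in ago4 replicates 1, 2 and 3, against 1, 5 and 0 in nrpe1. Beyond the segment, the whole remaining arm held 12. In each replicate the segment thus held fewer listed DMRs than the stretch below it in ago4, and more in nrpe1.

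By library, the 18 DMRs fell into a few patterns. In any ago4 library 14 were listed and in any nrpe1 library 7, with 3 in both genotypes, 11 in ago4 alone and 4 in nrpe1 alone. As shares of the 18 these are 16.7%, 61.1% and 22.2%, against 19.8%, 60.3% and 19.96% of all 541 listed DMRs. A single library listed 9 of the 18 (50%), against 51.6% of all DMRs. Of the segment's DMRs, 4 (22.2%) were listed in ago4 replicate 1 and in neither other ago4 library, against 108 of all 541 (19.96%). Another 4 (22.2%) were listed in ago4 replicates 2 and 3 without replicate 1, against 73 of all 541 (13.5%). No DMR of the segment was listed in all 6 libraries, against 6 of the 541.

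**Figure D2:**
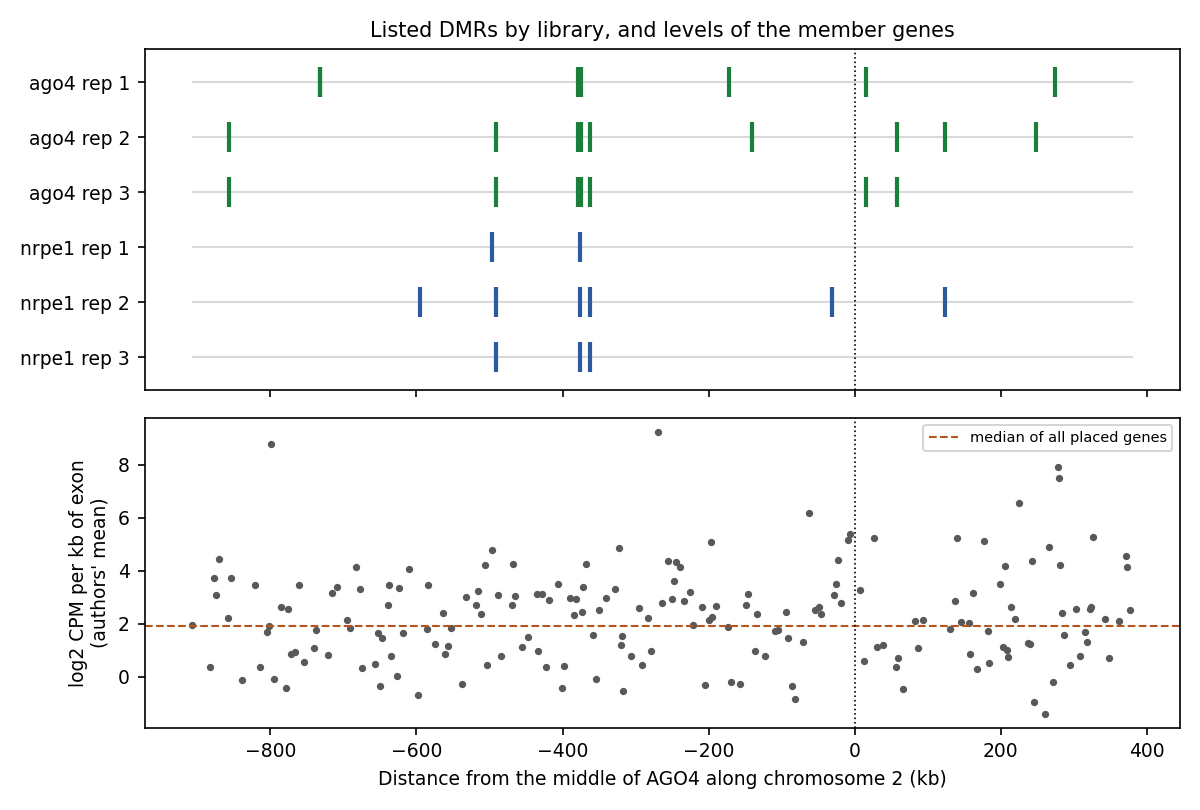
Upper panel: DMRs listed in each library (ticks), with the 3 ago4 libraries above the 3 nrpe1 libraries, by distance from the middle of AGO4 in kb. Lower panel: level of each of the 190 members in log2 CPM per kb of exon, the authors' mean over their libraries, with the all-gene median of 1.93 dashed. The ticks common to all 3 ago4 libraries lie in the uricase group, at -378 and -375 kb, on either side of the tick common to all 3 nrpe1 libraries. The levels spread above and below the dashed line along the whole segment.

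Listing in every library of a genotype and in none of the other is listing without overlap between the genotypes. Among the segment's DMRs it occurred only in the uricase group. DMRs of all 3 ago4 libraries and no nrpe1 library numbered 2 of 18 (11.1%), against 10.7% of all listed DMRs (58 of 541), so their share in the segment was near the background. The reverse pattern, all 3 nrpe1 libraries and no ago4 library, was found for 1 of 18, against 0.185% of all listed DMRs, since it was the single such DMR of the 541. With 3 replicates and no test over DMRs, these are counts.

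The 3 DMRs of the uricase group lay within 3521 bp, of which they covered 1863 bp. Lowest in coordinate was 11160868-11161230 (363 bp), in an exon of the transcribed pseudogene AT2G26220 and 1451 bp downstream of AT2G26210, an ankyrin repeat gene. After a gap of 930 bp came 11162161-11163193 (1033 bp), which also overlapped an exon of AT2G26220. After a further 728 bp came 11163922-11164388 (467 bp), in an exon of the non-coding locus AT2G08145. The last of the 3 ended 187 bp before the uricase gene AT2G26230 (11164575-11167346, plus strand), and the middle one 1382 bp before it. Both gaps exceed the 250 bp windows in which interactions were called. The 3 DMRs had 28.1%, 29.3% and 25.7% GC and 100%, 83.0% and 96.4% of 31-mers unique in the genome, in order of coordinate. The middle one, absent from every ago4 list, thus had the lowest share of unique 31-mers of the 3 and no GATC, and the last, present in every ago4 list, had no GATC either. Whether mapping of reads to the repeated stretches differed between the genotypes was not tested. GATC sites and unique 31-mers were read from the TAIR10.1 reference, from which the ago4 plants may differ here if they carry donor DNA. The part of such differences in the lists was not tested. The group lay 43.7 kb from ERECTA (AT2G26330, 11208080-11214662) and 372 kb from AGO4.

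**Figure D3:**
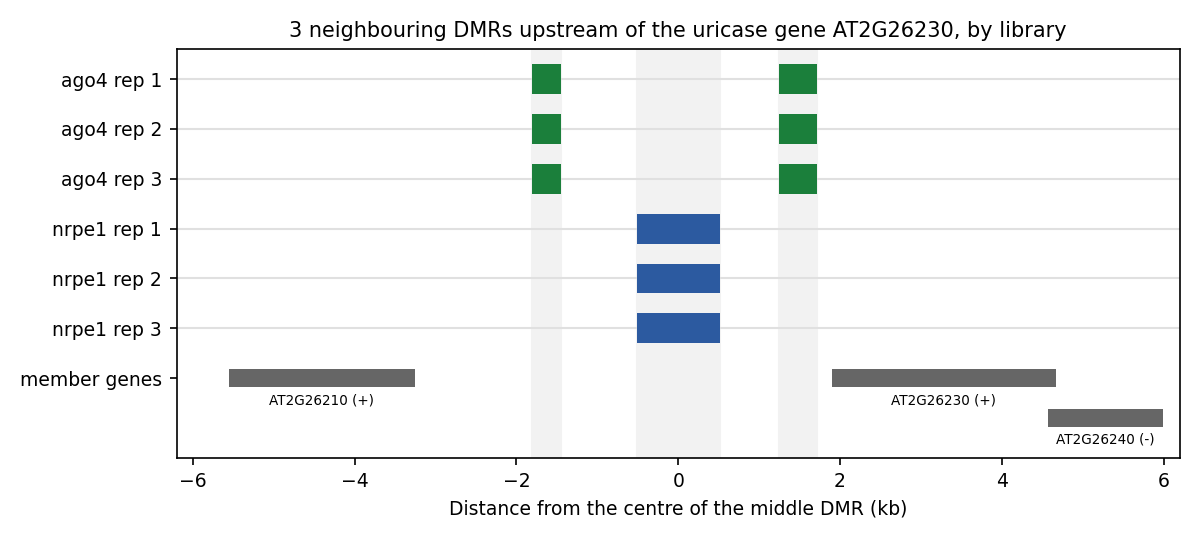
The 3 DMRs upstream of AT2G26230 (shaded) and the libraries that listed them (filled boxes), ago4 above nrpe1, by distance in kb from the centre of the middle DMR. Grey bars are member genes, with their strand. The outer DMRs are filled in 3 of 3 ago4 libraries and the middle one in 3 of 3 nrpe1 libraries, with no library that lists both kinds.

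The 3 DMRs that both genotypes had were each listed by the same replicate numbers in both, which held for 44 of the 107 such DMRs in the whole set (41.1%). A region 291 bp downstream of AT2G25910, a gene for an exonuclease with a KH domain, and a region 769 bp upstream of 3BETAHSD/D2 (AT2G26260), a sterol dehydrogenase/decarboxylase gene, were each listed in replicates 2 and 3 of ago4 and in replicates 2 and 3 of nrpe1. The third shared DMR, 5837 bp upstream of AT2G27260, was listed in replicate 2 of each genotype. Replicate 1 of neither genotype listed any of the 3.

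Near AGO4 itself the closest DMR (11555359-11555542) lay 13.1 kb away by its midpoint and 584 bp downstream of the receptor-like kinase gene AT2G27060. It was listed in ago4 replicates 1 and 3 and in no nrpe1 library, and 44.6% of its 31-mers were unique. On the same side, 54.9 kb away, a DMR 623 bp downstream of the lipid-transfer protein gene AT2G27130, was listed in ago4 replicates 2 and 3 and in no nrpe1 library. On the other side of AGO4, 27.6 kb away, a DMR 642 bp downstream of AT2G26970 was listed in nrpe1 replicate 2 alone. At the far end of the segment the DMR beside AT2G25100, which encodes a ribonuclease H-like protein, was listed in ago4 replicates 2 and 3. These 3 ago4 regions were thus each absent from a single ago4 library.

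Of the members, 7 of 190 (3.68%) had a DMR of any ago4 library within the gene or within 2.5 kb upstream, against 1.11% of all placed genes of the table. A DMR of any nrpe1 library was so placed for 4 members (2.11%), against 0.56% of all placed genes. Both fell at the same 2 members, the uricase gene and 3BETAHSD/D2. The ago4 genes included AT2G25100, SDF2 (AT2G25110), CYCB1;4 (AT2G26760), which encodes a mitotic B-type cyclin, and AT2G27610, which encodes a tetratricopeptide repeat-like protein. AT2G25100 and SDF2 were both counted through the same DMR, 185 and 1794 bp away. The share among genes of the stretch directly below the segment was not examined. The nrpe1 genes included AT2G25690 and the zinc finger gene ATCTH (AT2G25900), whose exon overlapped the DMR. Only the uricase gene had a DMR of all 3 ago4 libraries (0.526% of members, against 0.253% of all placed genes). The uricase gene is thus named for its place in the lists, and the others here that are in no functional list below were chosen after the lists were seen.

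Members lay nearer to listed DMRs than the genes of the whole table did. The median distance to the nearest DMR of an ago4 library was 34.4 kb over members, against 164.7 kb over all placed genes. For DMRs of an nrpe1 library it was 67.1 kb, against 327.5 kb. An ago4 DMR within 10 kb was found for 38 members (20%), against 6.08% of all placed genes. An nrpe1 DMR within 10 kb was found for 18 members (9.47%), against 3.13% of all placed genes. The farthest members were 117 kb from an ago4 DMR and 249.6 kb from an nrpe1 DMR. The numbers of listed DMRs in and around the segment, and the longer lists of ago4, are given above, and their part in these distances was not tested.

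The second question was how strongly the members were expressed. The expression values are the authors' mean, taken to cover the libraries of both genotypes, though the labels do not name the libraries averaged. They are given here as CPM per kb of exon. As means they have no replicate error, and no ago4 to Col-0 comparison is made. In bulk RNA of seedlings, fewer cells of a type and less RNA per cell cannot be told apart. Markers of photosynthetic tissue were high (RBCS1A 1258, CAB1 1062, LHCA1 2351 and PRK 158 CPM per kb), the root marker PYK10 was at 50.9 CPM per kb, and the seed storage gene CRA1 had no row. The RNA, which the labels call seedling RNA, thus held transcripts of both marker groups.

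The members covered nearly the full range of levels. Their median was 4.66 CPM per kb (quartiles 1.97 and 9.29, n = 190), against 3.80 CPM per kb over all 16604 placed genes (quartiles 1.74 and 9.32). Above the all-gene median lay 108 members (56.8%). In the top decile of all placed genes were 16 members (8.42%) and in the bottom decile 15 (7.89%). The median was 5.15 CPM per kb on the lower-coordinate side of AGO4 (n = 134) and 4.23 CPM per kb on the other side (n = 56). The 7 members with a nearby ago4 DMR had a median of 3.02 CPM per kb, against 4.73 CPM per kb for the other 183. AGO4 itself was at 3.96 CPM per kb, higher than 51.5% of placed genes. Next to it, the calmodulin gene CAM5 (AT2G27030) on the lower-coordinate side was at 42.0 CPM per kb, and EIL1 (AT2G27050), an ethylene-response transcription factor gene, on the higher-coordinate side was at 9.80 CPM per kb.

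Levels were described for 9 functional lists holding 59 genes, of which 44 had a row and 15 had none and were not analysed here. The highest list was that of ribosomal and proteasome proteins, with 6 of 6 genes above the all-gene median, 5 of them in the top decile, and a median of 138.2 CPM per kb. AT2G25210, a gene of the large-subunit ribosomal protein L39 family, was at 437.6 CPM per kb. AT2G27710 and AT2G27720, neighbouring genes for the acidic P2 protein of the ribosomal stalk, were at 242.3 and 182.0 CPM per kb. Reads that match both of these similar neighbours would fall under multiple alignments, which were left out. Their separate values may thus be too low, which was not tested. PGY1 (AT2G27530), for ribosomal protein L10a, was at 94.4 CPM per kb. The proteasome genes were lower, with PAG1 (AT2G27020), a core alpha subunit, at 35.6 CPM per kb and RPN13 (AT2G26590), a ubiquitin receptor of its regulatory particle, at 9.22 CPM per kb.

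Chloroplast and tetrapyrrole genes came next, with 7 of 8 above the all-gene median, 3 in the top decile and a median of 17.0 CPM per kb. AT2G26500, for the PetM subunit of the cytochrome b6f complex, was the highest of all members at 601.3 CPM per kb. BASS2 (AT2G26900), for a pyruvate carrier of the chloroplast envelope, was at 71.7 CPM per kb. Among the tetrapyrrole genes, TED4 (AT2G26670, also HY1), for the heme oxygenase that makes the precursor of the phytochrome chromophore, was at 33.7 CPM per kb and its relative HO2 (AT2G26550) at 12.3 CPM per kb. HEMD (AT2G26540), for uroporphyrinogen III synthase, was at 7.70 CPM per kb. GPX1 (AT2G25080), for a plastid glutathione peroxidase, was at 21.8 CPM per kb. CDPMEK (AT2G26930), a kinase of plastid isoprenoid synthesis, was at 5.11 CPM per kb, and emb2410 (AT2G25660), the list's lowest, was at 3.16 CPM per kb.

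Counting only genes with a row, hormone genes were the lowest list, with 3 of 11 above the all-gene median and a median of 1.97 CPM per kb. The lists lacked unequal numbers of genes. No row was found for 2 of 13 hormone genes, against 5 of 9 receptor and developmental genes. CIPK3 (AT2G26980), a kinase gene of calcium and abscisic acid signalling, was the highest of them at 21.4 CPM per kb, followed by EIL1. BSL3 (AT2G27210), a phosphatase gene of brassinosteroid signalling, was at 4.44 CPM per kb. EBF1 (AT2G25490), whose F-box protein targets EIN3 and EIL1 for degradation, was at 3.59 CPM per kb, below its target EIL1. RTE1 (AT2G26070), a regulator of ethylene receptors, was at 1.97 CPM per kb. In the cytokinin pathway, IPT2 (AT2G27760), for a tRNA isopentenyltransferase, was at 3.01 CPM per kb and RR12 (AT2G25180), for a response regulator, at 1.29 CPM per kb. CYP711A1 (AT2G26170, also MAX1), of strigolactone synthesis, was at 1.34 CPM per kb, CYP94C1 (AT2G27690), of jasmonate breakdown, at 0.877 CPM per kb, BAS1 (AT2G26710), of brassinosteroid inactivation, at 0.826 CPM per kb and AAO3 (AT2G27150), of abscisic acid synthesis, at 0.720 CPM per kb. The abscisic acid receptor gene of this range, AT2G26040, had no row and was not analysed here.

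**Figure D4:**
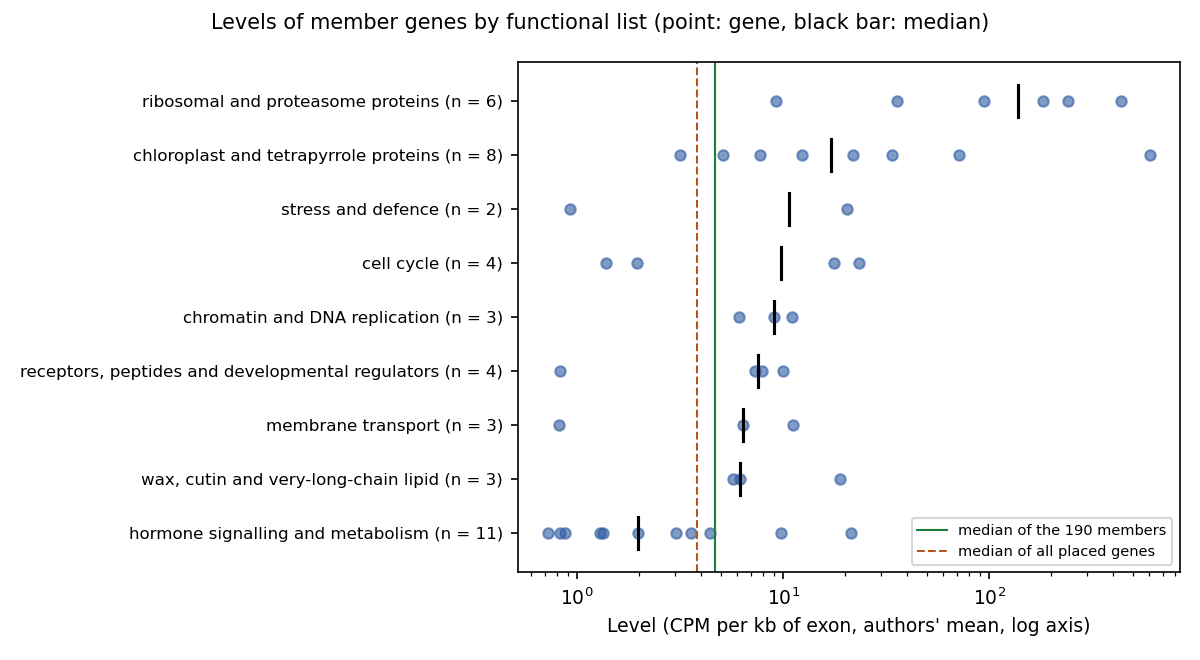
Levels of the 44 listed members in CPM per kb of exon (log axis), by functional list in order of the list median (black bar). The median of all 190 members is 4.66 and that of all placed genes 3.80 CPM per kb. Ribosomal and proteasome genes lie at the right, and the 11 hormone genes spread on both sides of these lines with a median of 1.97.

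Receptor and developmental genes had a median of 7.58 CPM per kb over 4 of 9 genes. ERECTA (AT2G26330), for a receptor kinase of stem and stomatal development, was at 10.0 CPM per kb. GPA1 (AT2G26300), for the alpha subunit of the heterotrimeric G protein, was at 7.87 CPM per kb, and YAB5 (AT2G26580), a YABBY transcription factor gene of leaves, at 7.28 CPM per kb. The receptor-like kinase gene AT2G25790 was at 0.822 CPM per kb. All 3 chromatin genes with a row were above the all-gene median: PKL (AT2G25170), for a CHD3 chromatin remodeller, at 11 CPM per kb, OTLD1 (AT2G27350), for a histone deubiquitinase, at 9.01 CPM per kb and HDT4 (AT2G27840), for a plant-type histone deacetylase, at 6.13 CPM per kb.

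Cell cycle genes split into 2 high and 2 low. CKS1 (AT2G27960) and CKS2 (AT2G27970), for small subunits of cyclin-dependent kinases, were at 23.5 and 17.6 CPM per kb. CYCB1;4 was at 1.95 and AUR2 (AT2G25880), for an Aurora kinase, at 1.38 CPM per kb. All 3 wax and cutin genes were above the all-gene median, with KCS10 (AT2G26250) at 18.9, KCS11 (AT2G26640) at 6.19 and the transporter gene ABCG32 (AT2G26910) at 5.70 CPM per kb. KCS10 and KCS11 encode enzymes of very-long-chain fatty acid elongation. Of the transport genes, COPT6 (AT2G26975), for a copper transporter, was at 11.2 CPM per kb, AT2G26690, for a major facilitator, at 6.38 CPM per kb and KT1 (AT2G26650, also AKT1), for a root potassium channel, at 0.814 CPM per kb. In the stress list PLA2A (AT2G26560), for a patatin-like lipase, was at 20.3 CPM per kb and CLPB4 (AT2G25140), for a mitochondrial chaperone, at 0.921 CPM per kb. The 5 lowest members were AT2G26360, a mitochondrial carrier gene (0.686 CPM per kb), AT2G25690 (0.626 CPM per kb), NPC2 (AT2G26870), for a phospholipase C (0.560 CPM per kb), AT2G27610 (0.525 CPM per kb) and AT2G27660, a C1 domain gene (0.382 CPM per kb). AT2G25690 and AT2G27610 were also among the members with a listed DMR upstream. Each DMR was listed by a single library, nrpe1 replicate 2 for the first and ago4 replicate 2 for the second. Other members with a listed DMR were higher, with ATCTH (nrpe1) at 27.2 and SDF2 (ago4) at 13.2 CPM per kb. Of the 7 members with a nearby ago4 DMR, 3 were above the all-gene median and 2 in the bottom decile.

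The uricase gene AT2G26230 was at 5.39 CPM per kb, higher than 61.2% of all placed genes, which are those with a row. Its neighbours were at similar levels, with AT2G26210 at 7.60 CPM per kb on the side of the DMRs and AT2G26240, whose end overlaps that of the uricase gene on the other strand, at 10.4 CPM per kb. Among the genes with a row, the uricase gene was thus expressed at an ordinary level in the pooled seedling libraries. Whether its level differed between ago4 and Col-0 was not examined.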

How the data were processed

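Hi-C used DpnII on formaldehyde-crosslinked above-ground tissue of seedlings. The authors mapped read ends with Bowtie, called interactions between 250 bp windows, and deposited for each ago4 and nrpe1 library a list of nrpe1 DMRs that had an interaction. Overlaps in the study rest on high-scoring interactions except where it says otherwise. Each line also holds 2 unlabelled numbers, which were not used. A list has no read depth, so the depth of the libraries is unknown here and precision is limited by the 50 to 265 DMRs listed. Whether starts count from 0 or 1 is not stated, so positions may be off by 1. The study calls its replicates biological, but the labels do not say whether they were separate plant pools. The p-values refer to these samples only.

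For RNA-seq (TopHat2, EdgeR, TAIR10) the authors deposited a mean log2 CPM, a fold change and a p-value per gene. The fold change and p-value columns hold the authors' own comparison and were not used, so ago4 and Col-0 are not compared for RNA. Entries for no feature (2.22% of summed CPM), ambiguous reads (1.02%) and multiple alignments (57.4%) were left out but remain in the CPM total, of which genes are 39.3%. The authors' log2 CPM was converted to CPM and divided by the union exon length of TAIR10.1. All listed DMRs lay within TAIR10.1 chromosome lengths and 12 primers of the study each had 1 match in it. Sequences are credited to RefSeq TAIR10.1. Placed genes are the 16604 on nuclear chromosomes.

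Lists were matched to samples by genotype and replicate number. Shares were compared within replicate numbers, following the paired tests of the study, by an exact sign-flip test (two-sided). The share calculation was checked on simulated lists, and the sign-flip test on fixed example values only. A DMR was in the segment if its midpoint was. Calculations ran in Python 3.11.15 with pandas 2.3.3, numpy 2.4.6 and scipy 1.17.1, and plots in matplotlib 3.10.9. Alternatives were the unpaired test, raw numbers, merging of DMRs under 250 bp apart, other denominators, a narrower segment, other upstream distances, other level scales and each replicate left out. Named genes were those of the functional lists, members with a DMR of all 3 ago4 lists, the 5 highest and 5 lowest, and the nearest to AGO4 on each side. Other genes named beside a DMR were chosen after the lists were seen. Members and lists were chosen with earlier results of these data known. A further gene is not reported here.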

Additional observations from a re-analysis of the deposited data

How the results depend on the processing

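The lower share of the segment in ago4 than in nrpe1 (-0.664 percentage points) kept its direction in 7 of the 9 alternatives that could change it, from -4.65 with chromosome 2 alone as the denominator to -0.379 without replicate 3. With DMRs less than 250 bp apart merged (mean -0.612), 1 of the 3 replicates was higher in ago4 (exact sign-flip test, p = 0.5). The same held for DMRs within 2.5 kb of a member (mean -0.910, exact sign-flip test, p = 0.5). Leaving out each replicate gave -0.989 to -0.379 percentage points. As raw numbers the direction turned, at 4.00 more DMRs in ago4, and in the narrower segment it turned to 0.0110 percentage points. Without the replicate block, p was 0.10 in the exact permutation test instead of 0.25 in the exact sign-flip test. Same-numbered libraries deviated together only weakly (correlations 0.159, 0.111 and -0.00483), so the numbers were not shown to pair the samples. The DMRs of all 3 ago4 lists and no nrpe1 list (2) became 5 of 18 (27.8%) with at least 2 ago4 lists, against 26.2% of all listed DMRs. They were 2 to 4 when a replicate was left out. Without replicate 1 they were 4 of 13 (30.8%), against 27.0% of all DMRs then listed. Without replicate 2 they were 3 of 13 (23.1%), against 18.8%. Without replicate 3 they were 2 of 18 (11.1%), against 15.2%. The members with a nearby ago4 DMR (7 of 190) were 4 within 1 kb (against 0.681% of all placed genes), 11 within 5 kb (against 1.84% of all placed genes) and 1 for DMRs of all 3 ago4 lists (against 0.253% of all placed genes). They were 5 to 7 when a replicate was left out, against 0.813% to 1.01% of all placed genes. The cause of these changes, beyond the changed definitions, was not tested. The median member level (2.22 on the log2 CPM per kb scale, against 1.93 over all genes) was 2.22 to 3.01 in its alternatives, the last without division by length (2.86 over all genes). The short lists, with 50 DMRs in nrpe1 replicate 1, limit what a difference in share can show.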
